A study of Homo sapiens with 4 samples.

Results

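The genes described here are 10 regulators of the G1 phase of the cell cycle, namely the D cyclins CCND1, CCND2 and CCND3, their kinases CDK4 and CDK6, cyclin E1 (CCNE1) with its kinase CDK2, the CDK inhibitors CDKN1A (p21) and CDKN1B (p27), and the transcription factor E2F1. They were taken by gene name from a table of fragment counts for 59384 gene names, and all 10 were present. RNA had been sequenced from Daoy cells, an established human medulloblastoma line described in the labels as tumour cells. The shFABP4 group, labelled as a FABP4 knockdown, received an shFABP4 lentivirus, meant to silence the cytosolic fatty acid binding protein FABP4, and gave 2 libraries. The pLKO group, labelled WT, received the pLKO control virus and also gave 2 libraries. All cells had thus undergone lentiviral infection, and the sequence and number of hairpins are not given in the sources used here. Whether libraries of 1 group derive from different cultures is not stated, and the p-values reflect the spread of these libraries only, which may be technical.

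A cell that leaves G1 uses D cyclins, bound to CDK4 or CDK6, to start phosphorylating the retinoblastoma protein RB. Cyclin E with CDK2 completes this step, and RB then releases E2F factors, which switch on genes of DNA replication and also E2F1 and CCNE1 themselves. CDKN1A and CDKN1B bind cyclin-CDK complexes and restrain CDK2. Medulloblastomas driven by Hedgehog signalling are known for expressing D-type cyclins, including CCND1 and CCND2.

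The libraries were uneven. The shFABP4 libraries held 2539862 (library 1) and 20431660 (library 2) counted fragments, against 8988961 and 13839885 in the pLKO libraries. In the shallow library, shFABP4 1, fragments fell on 51762 gene names, against 22350 to 25560 in the others, and 372 of 385 olfactory receptor genes were hit, against 40 to 69. A background rate for it, from 2657 coding genes at 0 elsewhere, ran from 3.81 fragments per kb of exon below 40% GC to 18.9 above 60% GC and accounted for 54.6% of its fragments. Of 10 markers of immune, endothelial, adipocyte, epithelial, muscle and liver cells, all 10 had a fragment in shFABP4 1 (summed level 242 CPM, the count scaled to the library total) and 3 to 7 in the other libraries (0.667 to 2.30 CPM). PTPRC, ADIPOQ, CDH1 and ALB were at 0 in shFABP4 2, against 0 to 2 fragments each in the pLKO libraries. CD3E, CDH5 and MYH2 were at 0 in both pLKO libraries and had 5, 7 and 6 fragments in shFABP4 2. Their part in the results was not tested. VIM, an intermediate filament gene of mesenchymal and neural progenitor cells, was high in all libraries (1114 and 6412 CPM in shFABP4, against 1536 and 1552 CPM in pLKO), and NES, a neural progenitor marker, was low (67.3 and 8.81 CPM in shFABP4, against 3.89 and 4.99 CPM in pLKO), with 90.3 of its 171 fragments in shFABP4 1 expected from background.

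FABP4 itself did not check the labels. It had 14 fragments in shFABP4 1, where 5.21 were expected from background, and 0 in shFABP4 2, against 1 and 6 in the pLKO libraries. The library labelled shFABP4 1 therefore lay above both pLKO libraries, and the level was too low for a test. The names shFABP4 1 and shFABP4 2 stand throughout for the libraries so labelled.

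Promoters of 7 of the 10 genes were present in a RefSeq table (GRCh38.p14, 250 bases before to 50 bases after the start site). CCND1, CCND2 and CDK2 had no entry. Under the main scaling E2F1 and CCNE1, textbook E2F targets, were lower in both shFABP4 libraries, and CDK4, a textbook MYC target, was higher in both. With the scaling by abundant genes described below, CCNE1 in shFABP4 1 lay above the pLKO libraries instead. The sequences of these genes are shown, picked with these values known, and they test no cause. They are written 5′ to 3′ along the gene's strand, and capitals mark every match, on either strand, to the E2F words TTTGGCGC, TTTGCCGC, TTTCGCGC and TTTCCCGC, to the E-box CACGTG bound by MYC with MAX, and to the GC box GGGCGG bound by SP1. The windows lie at chr20:33686336-33686635 (minus strand, E2F1), chr19:29811741-29812040 (plus strand, CCNE1) and chr12:57752261-57752560 (minus strand, CDK4).
E2F1: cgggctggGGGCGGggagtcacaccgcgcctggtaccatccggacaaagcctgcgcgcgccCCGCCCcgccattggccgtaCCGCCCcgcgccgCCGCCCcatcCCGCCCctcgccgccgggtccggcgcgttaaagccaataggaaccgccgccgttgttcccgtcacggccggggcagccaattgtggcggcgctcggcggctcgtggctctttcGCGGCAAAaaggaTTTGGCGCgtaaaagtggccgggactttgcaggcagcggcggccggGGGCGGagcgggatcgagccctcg
CCNE1: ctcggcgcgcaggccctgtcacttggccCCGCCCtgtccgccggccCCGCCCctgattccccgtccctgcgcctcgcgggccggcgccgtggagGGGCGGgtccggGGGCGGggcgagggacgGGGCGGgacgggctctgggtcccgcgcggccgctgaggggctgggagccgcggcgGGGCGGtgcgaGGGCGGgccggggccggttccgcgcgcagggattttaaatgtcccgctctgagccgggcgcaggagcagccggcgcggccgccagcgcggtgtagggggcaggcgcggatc
CDK4: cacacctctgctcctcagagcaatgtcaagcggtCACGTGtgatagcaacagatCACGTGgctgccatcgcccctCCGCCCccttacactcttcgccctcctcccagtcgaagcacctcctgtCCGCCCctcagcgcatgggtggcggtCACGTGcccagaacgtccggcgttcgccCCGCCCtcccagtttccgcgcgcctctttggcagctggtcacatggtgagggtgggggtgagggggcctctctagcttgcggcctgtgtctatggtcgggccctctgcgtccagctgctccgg

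E2F1 was the only one of the 7 genes whose window held an E2F word. It had 2, starting at positions -33 and -20 from the start site on opposite strands, while 3.31% of the 35116 windows in the table held at least 1. The CDK4 window held 3 E-boxes, at positions -216, -196 and -101, where 7.26% of windows held at least 1, and 1 of the CDK6 windows held 1, past the start site. GC boxes numbered 7 in CCNE1, 6 in E2F1, up to 5 in a window of CCND3, 4 in CDKN1A, 3 in CDK4, up to 3 in a window of CDK6 and 1 in CDKN1B, and 44.95% of windows held at least 1. None of the matched words overlapped another in the sequences shown. These are matches of letters and do not show binding, and whether E2F or MYC had a part in the levels was not tested. Under the main scaling CCND1, CCND3, CDK2 and CDKN1A were also lower in both shFABP4 libraries, and CDK6 and CDKN1B were also higher. That the CCNE1 window holds none of the 4 E2F words says only that these letters are absent from it.

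The genes spanned a wide range of levels, given as FPKM (CPM per kb of exon) with exact 95% Poisson intervals, which cover counting error only. In the pLKO libraries CCND3 was the highest (114 and 112), followed by E2F1 (89.4 and 88.9), CDKN1A (81.4 and 82.1), CCNE1 (34.4 and 37.2), CDK2 (13.4 and 14.5) and CCND1 (11.3 and 11.0). CDK4 (0.863 and 0.981), CDK6 (0.454 and 0.514), CDKN1B (0.313 and 0.219) and CCND2 (0 and 0.0271) were far lower. The pLKO pair kept the same order, and the values of neighbouring genes did not overlap between the 2 libraries. In pLKO 1 the counting intervals of CDK2 and CCND1, of CDK4 and CDK6, and of CDK6 and CDKN1B did overlap. CCND3 was thus the main D cyclin transcript in the pLKO libraries, where CCND2 was barely detected. In shFABP4 1 the intervals of CCND3 (12.4) and CCND1 (11.5) overlapped.

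In shFABP4 2 the order changed at the top. CDKN1A was first at 32.4, with an interval of 31.0 to 33.9, next to CCND3 at 30.7, with an interval of 29.7 to 31.7, so that these neighbours were not separated. E2F1 followed at 14.9, then CCNE1 at 8.75, CCND1 at 6.49, CDK2 at 3.19, CDK4 at 2.67, CDKN1B at 1.34, CDK6 at 0.972 and CCND2 at 0.00613. In shFABP4 1 levels were compressed, between 1.70 for CDKN1B and 19.5 for CCNE1, and include background.

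**Figure D1:**
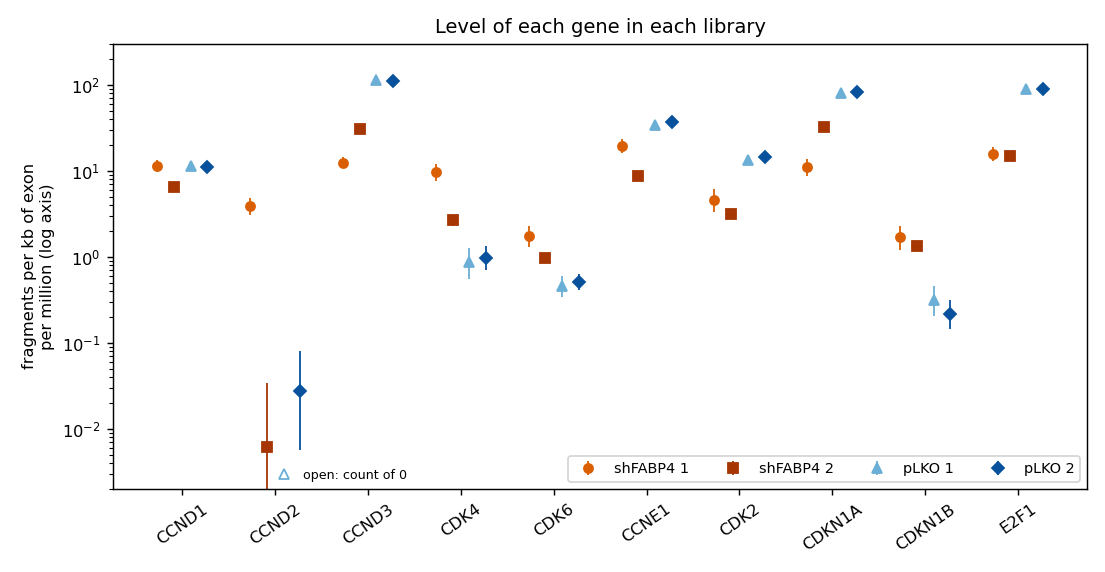
Level of the 10 genes in each library, in FPKM on a log axis, with 95% Poisson intervals as bars; an open symbol marks a count of 0. CCND3, E2F1 and CDKN1A lie above 80 in both pLKO libraries and CDK4, CDK6, CDKN1B and CCND2 below 1, while CCND2 reaches 3.89 in shFABP4 1 and 0.00613 in shFABP4 2.

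CDK4 is unusually exposed to the counting. Its locus is chr12:57747727-57756013 on the minus strand of GRCh38, the build of all coordinates given, and 1369 of its 3094 exon bases, 44.2%, are also exons of TSPAN31 on the opposite strand. The counting ignored strand, and its command set no option to assign a fragment to several genes. If every counted CDK4 fragment came from the unshared bases, its level would be 17.3 and 4.80 FPKM in shFABP4, against 1.55 and 1.76 FPKM in pLKO. TSPAN31 had 93 and 289 fragments in the shFABP4 libraries, against 114 and 165 in the pLKO libraries. The shared part was 16.8% for CDK2, 12.5% for CCND2, 10.4% for CCND1 (with LTO1), 4.87% for CDKN1A, and under 1% for CCND3, CDK6, CCNE1, CDKN1B and E2F1.

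The counts in shFABP4 1 have to be read against its background. CCNE1 stood highest above it, with 122 fragments (95% interval 101 to 146) against 26.2 expected at its GC content, followed by CCND1 (139 against 50.7), CDK4 (76 against 32.9), E2F1 (108 against 50.8), CCND3 (182 against 93.4) and CDKN1A (84 against 48.6). CCND2 (79 against 61.7), CDK6 (54 against 46.6) and CDK2 (45 against 41.4) had the expectation inside or just below their interval. CDKN1B held 40 fragments (28.6 to 54.5) against 71.5 expected. With a rate by length only, E2F1 would have 23.2 expected, CCND3 49.7, CDKN1A 25.9 and CDK6 106, so the GC-rich genes stand higher and CDK6 lower under that estimate. Both estimates use the full exon length. Where exon bases are shared, most of all in CDK4, they are too high if fragments on shared bases went uncounted.

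**Figure D2:**
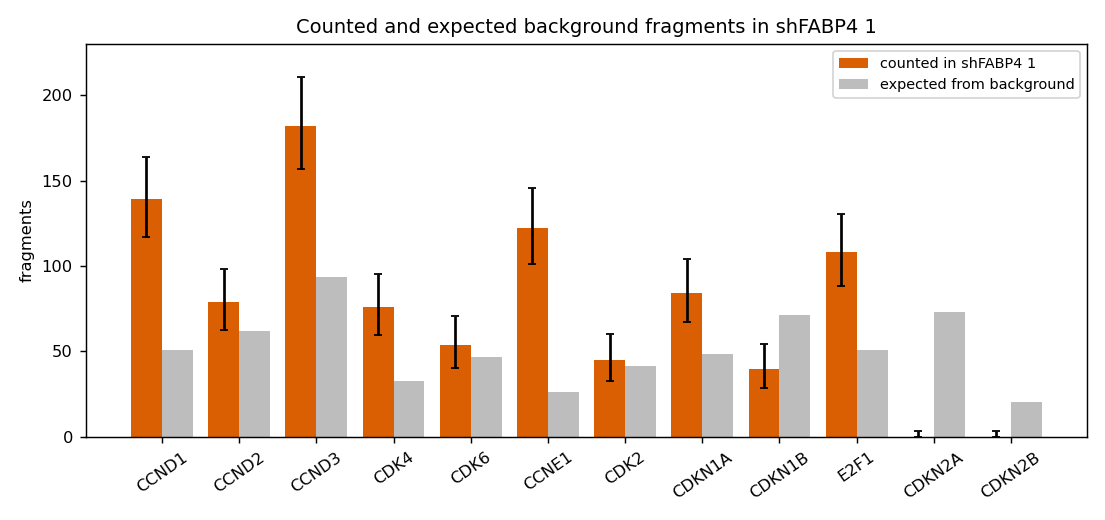
Fragments counted in shFABP4 1 (coloured bars, with 95% Poisson intervals) and fragments expected from its background rate (grey bars), for the 10 genes and for CDKN2A and CDKN2B. CCNE1 has 122 against 26.2, CDK2 45 against 41.4, and CDKN2A and CDKN2B have 0.

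The labels set the FABP4 hairpin against its control virus in a study of medulloblastoma growth. Of the 10 genes, 9 were tested and 0 passed an adjusted p of 0.05 in edgeR's quasi-likelihood fit to all 4 libraries, and CCND2 failed the low-count filter. Of all 14735 genes tested, 0 passed as well (0%), and 1818 had an unadjusted p under 0.05 (12.3%), among them CDK4, CCNE1, CDK2, CDKN1B and E2F1. In DESeq2 CCND3, CDK2 and E2F1 passed, all lower in shFABP4, where 695 of all genes did (4.72%, with 3.59% higher and 1.13% lower), and limma-voom called 0. With no low-count filter 0.132% of genes and 0 of the 10 were called in edgeR, and with the library number as a term 0.19% and 0 of 9. With TMM scaling, which sets library sizes from the bulk of tested genes, both shFABP4 libraries lay below both pLKO libraries for 6 of the 9 tested genes (26.1% of all tested genes did) and above for 3 (28.5%). With library totals they lay below for 5 (15.9%) and above for 3 (43.3%), with abundant-gene scaling below for 3 (4.80%) and above for 3 (59.0%), and with background also subtracted below for 4 (14.3%) and above for 2 (40.8%). The median log2 fold change over all tested genes was 0.34 with TMM, 1.299 with library totals and 2.33 when libraries were scaled by 1047 abundant coding genes, expected to stand at least 5 times above the background of shFABP4 1. Fold changes under abundant-gene scaling are therefore given as fitted and also relative to that median. Subtracting the median largely undoes the scaling, so the relative values are no separate check on the directions found with TMM. The 1047 abundant genes, picked by their level in the other libraries, held 15.5% of the fragments of shFABP4 1. They held 60.4% in shFABP4 2, against 62.6% and 62.8% in the pLKO libraries. A low value of a well-expressed gene in shFABP4 1 by CPM or TMM is thus not read as a replicate of shFABP4 2.

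E2F1 (chr20:33675477-33686385), which drives S-phase genes, had 108 and 817 fragments in the shFABP4 libraries, against 2161 and 3308 in the pLKO libraries. This was 42.5 and 39.99 CPM in shFABP4, against 240 and 239 CPM in pLKO. By CPM both shFABP4 libraries were low and the groups did not overlap. Of the 108 fragments in shFABP4 1, 50.8 were expected from background. After TMM scaling E2F1 averaged 37.1 ± 12.7 CPM in shFABP4 and 328 ± 0.0861 CPM in pLKO (SD, n = 2 each). In edgeR the log2 fold change was -3.14 (SE 0.69) at an adjusted p of 0.391. DESeq2 gave -3.21 (SE 0.80, adjusted p = 0.00548). Scaled by the abundant genes, both shFABP4 libraries still lay below (119 and 33.6, against 187 and 187), and with background subtracted they stood at 81.9 and 36.5, against 204 and 205. The fitted log2 fold change was -2.27 with library totals, -1.30 (SE 0.78) by the abundant genes and -1.80 (SE 0.53) with background also subtracted. Its size thus depended on the scaling. Relative to the median gene it was -3.47 with TMM and ranged from -3.62 to -2.82 over the other scalings. Subtracting the median removes most of what a scaling changes, so this narrow range is no check on the scaling.

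CCNE1 (chr19:29811991-29824312), which activates CDK2 late in G1, had 122 and 440 fragments in shFABP4, against 762 and 1267 in pLKO. This was 48.0 and 21.5 CPM in shFABP4, against 84.8 and 91.5 CPM in pLKO, so both shFABP4 libraries were lower. The log2 fold change with TMM was -2.09 (SE 0.49, adjusted p = 0.391, edgeR). Scaling decided where shFABP4 1 stood, since by the abundant genes it lay above the pLKO libraries (134, against 65.8 and 71.4) and shFABP4 2 below them (18.1), and background subtraction did not change this (138 and 19.7, against 71.8 and 78.4). The fitted log2 fold change by the abundant genes was 0.14, or -2.18 relative to the median gene.

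CDK2 (chr12:55966781-55972789), the partner kinase, had 45 and 253 fragments in shFABP4, against 468 and 778 in pLKO. This was 17.7 and 12.4 CPM in shFABP4, against 52.1 and 56.2 in pLKO, with no overlap. The log2 fold change with TMM was -2.50 (SE 0.46, adjusted p = 0.391, edgeR), and -2.58 in DESeq2 (SE 0.81, adjusted p = 0.0382). By the abundant genes shFABP4 1 lay just above the pLKO libraries (49.6, against 40.4 and 43.9), but its count is close to the 41.4 fragments expected from background, and with those subtracted it lay below (5.75, with 11.3 in shFABP4 2, against 44.1 and 48.2). The abundant-gene log2 fold change was -0.51, or -2.83 relative to the median gene.

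CCND3 (chr6:41934934-42050357), the leading D cyclin transcript of the pLKO libraries, had 182 and 3611 fragments in shFABP4, against 5902 and 8908 in pLKO. This was 71.7 and 177 CPM in shFABP4, against 657 and 644 in pLKO. Both shFABP4 libraries were lower under all 4 scalings shown, by the abundant genes at 200 and 149, against 510 and 502. The log2 fold change with TMM was -2.82 (SE 1.10, adjusted p = 0.391, edgeR), and -2.89 in DESeq2 (SE 0.90, adjusted p = 0.0358). By the abundant genes the fitted log2 fold change was -1.54 (SE 0.27), or -3.86 relative to the median gene. CCND3 was the only one of the 10 genes in the abundant set, which it entered through its pLKO level, so its call in a test of that set alone is not read as a result (35.6% of the 1047 genes were called there, 18.1% higher and 17.6% lower).

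CCND1 (chr11:69641156-69654474), the D cyclin best known as a growth-factor target, had 139 and 631 fragments in shFABP4, against 485 and 724 in pLKO. Its level in shFABP4 1 was within counting error of the pLKO values and that in shFABP4 2 below them, at 54.7 and 30.9 CPM, against 53.96 and 52.3 CPM. With TMM both lay below (36.2 and 35.6, against 73.5 and 71.7), and edgeR gave a log2 fold change of -1.02 (SE 0.44) at an adjusted p of 0.392. By the abundant genes shFABP4 1 lay above (153, against 41.9 and 40.8) and shFABP4 2 below (25.96), and the fitted log2 fold change was 1.11 (SE 1.12), or -1.22 relative to the median gene.

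CCND2 (chr12:4269771-4305353) had 79 and 1 fragments in shFABP4, against 0 and 3 in pLKO. All but 4 of its fragments thus came from shFABP4 1, where 61.7 were expected from background. It was not tested, and no fold is given because both pLKO libraries and shFABP4 2 were at or under 3 counts.

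CDK4, whose kinase opens RB phosphorylation, had 76 and 169 fragments in shFABP4, against 24 and 42 in pLKO. This was 29.9 and 8.27 CPM in shFABP4, against 2.67 and 3.03 in pLKO, and both shFABP4 libraries were higher under all 4 scalings shown. The log2 fold change with TMM was 1.90 (SE 0.65, adjusted p = 0.391, edgeR), and by the abundant genes it was 4.33, or 2.004 relative to the median gene. CDK6 (chr7:92604921-92836573), its close relative, had 54 and 243 fragments in shFABP4, against 50 and 87 in pLKO. It stood at 21.3 and 11.9 CPM in shFABP4, against 5.56 and 6.29 in pLKO, also without overlap, and edgeR gave 0.78 on the log2 scale (SE 0.50, adjusted p = 0.454). Its count in shFABP4 1 is close to the 46.6 fragments expected from background, and with those subtracted it stood at 10.1 and 10.9 in shFABP4, against 4.71 and 5.39 in pLKO. Its abundant-gene log2 fold change was 2.89, or 0.57 relative to the median gene.

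CDKN1A (chr6:36676460-36687337), which encodes the inhibitor p21, had 84 and 1986 fragments in shFABP4, against 2192 and 3404 in pLKO. This was 33.1 and 97.2 CPM in shFABP4, against 244 and 246 in pLKO. Both shFABP4 libraries were lower under all 4 scalings shown, by the abundant genes at 92.5 and 81.7, against 189 and 192. With TMM it averaged 67.0 ± 63.8 in shFABP4 and 335 ± 3.49 in pLKO (SD, n = 2 each), and the log2 fold change, -2.32 (SE 1.02) at an adjusted p of 0.392 in edgeR, rested on shFABP4 libraries that differed widely from each other (21.9 and 112). By the abundant genes it was -1.13, or -3.46 relative to the median gene.

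CDKN1B (chr12:12685498-12722369), the other inhibitor, lay on the other side of the pLKO libraries. It had 40 and 254 fragments in shFABP4, against 26 and 28 in pLKO, or 15.7 and 12.4 CPM in shFABP4, against 2.89 and 2.02 in pLKO. Both shFABP4 libraries were higher before background was considered, and edgeR gave 1.88 on the log2 scale (SE 0.61, adjusted p = 0.391). Since shFABP4 1 held fewer CDKN1B fragments than its background predicts, it was at 0 after subtraction, and the higher level then rested on shFABP4 2 (11.3, against 2.45 and 1.73). Its abundant-gene log2 fold change was 3.81, or 1.49 relative to the median gene.

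**Figure D3:**
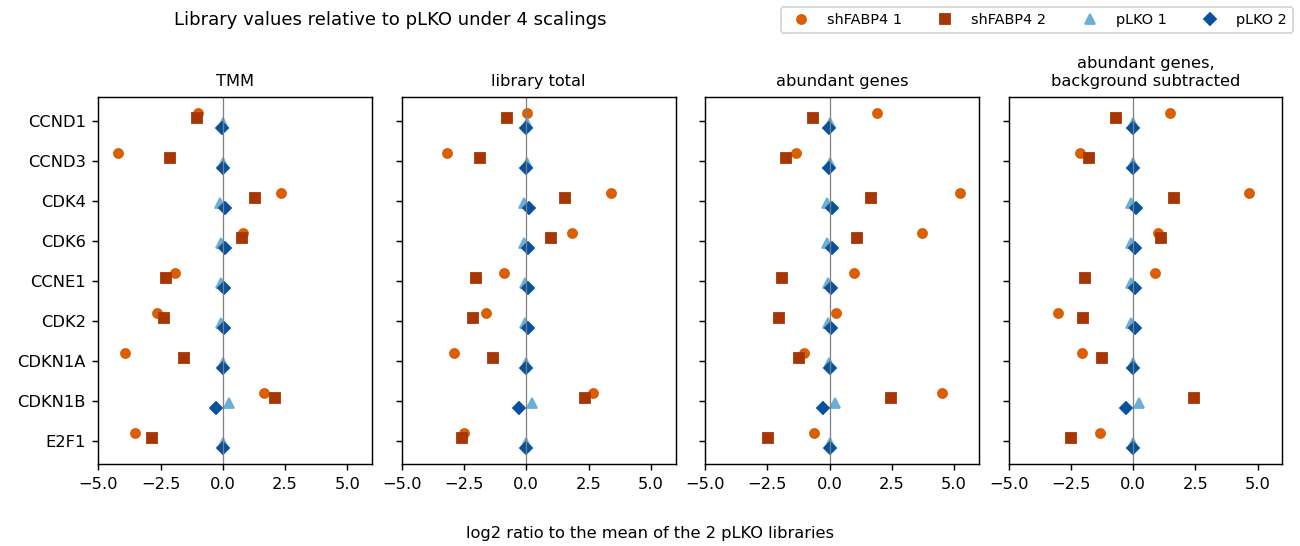
Log2 ratio of each library to the mean of the 2 pLKO libraries for the 9 tested genes, under TMM, library-total and abundant-gene scaling and with background subtracted from shFABP4 1. E2F1, CCND3 and CDKN1A lie left of 0 in both shFABP4 libraries in all 4 panels and CDK4 and CDK6 right of 0, while CCND1, CCNE1 and CDK2 in shFABP4 1 change side; CDKN1B in shFABP4 1 is at 0 after subtraction and is not drawn in the last panel.

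With shFABP4 1 left out, the comparison sets shFABP4 2 against the pLKO libraries. Only the pLKO libraries then estimate the spread (estimated coefficient of variation 0.0434), and the same small spread is assumed for the lone shFABP4 library. Of 15301 genes 10242 passed (66.9%), 34.2% higher and 32.7% lower, so a pass in this fit is the common outcome. All 9 tested G1 genes passed in edgeR, with no replicate check of shFABP4 2. E2F1 fell by 2.83 on the log2 scale (SE 0.05), CDK2 by 2.38 (SE 0.10), CCNE1 by 2.28 (SE 0.08), CCND3 by 2.12 (SE 0.04), CDKN1A by 1.58 (SE 0.05) and CCND1 by 1.02 (SE 0.08). CDKN1B rose by 2.14 (SE 0.23), CDK4 by 1.27 (SE 0.25) and CDK6 by 0.75 (SE 0.20), with adjusted p from 8.52e-59 for CCND3 to 0.000577 for CDK6 (edgeR). The highest GC content among them, 62.5%, belonged to E2F1 and the lowest, 39.5%, to CDK6. After correction for GC content and exon length, 8 of the 9 passed (67.1% of 13599 genes did, 32.6% higher and 34.5% lower), E2F1 fell by 2.38 (SE 0.06), CDKN1A by 1.25 (SE 0.05), and CDK6, at 0.27 (SE 0.20, adjusted p = 0.216, edgeR), did not pass. With shFABP4 2 left out instead, 8 of the 10 genes were called, where 85.9% of all genes were (56.6% higher, 29.3% lower), on the library with an estimated 54.6% of background.

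The balance of gene pairs within a library does not depend on how libraries are scaled. CCND1 made up 43.3% (exact 95% binomial interval 37.8 to 48.9) and 14.9% (13.8 to 15.98) of CCND1 and CCND3 fragments in the shFABP4 libraries, against 7.59% (6.96 to 8.27) and 7.52% (6.998 to 8.06) in the pLKO libraries. Both shFABP4 libraries thus had relatively more CCND1, and shFABP4 1 stood at 49.9% with background subtracted. With 2 libraries a group an exact permutation test cannot go below p = 0.333, so no such difference can pass.

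CDKN1B made up 32.3% (24.1 to 41.2) and 11.3% (10.1 to 12.7) of the fragments of the inhibitor pair in shFABP4, against 1.17% (0.767 to 1.71) and 0.816% (0.543 to 1.18) in pLKO. In shFABP4 1 this share was 0 after background subtraction. CCNE1 made up 53.04% (46.4 to 59.6) and 35.004% (32.4 to 37.7) of CCNE1 and E2F1 fragments in shFABP4, against 26.1% (24.5 to 27.7) and 27.7% (26.4 to 29.02) in pLKO. CCNE1 thus took a larger share of this pair in both shFABP4 libraries, and in shFABP4 1 it took 62.6% with background subtracted. The shares are not corrected for GC content, which was 52.9% for CCNE1 and 62.5% for E2F1. Without shFABP4 1 their log2 fold changes were -2.28 and -2.83, and -2.14 and -2.38 with the GC and length correction.

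CDKN1A made up 43.8% (36.6 to 51.1) and 70.9% (69.1 to 72.5) of CDKN1A and E2F1 fragments in shFABP4, against 50.4% (48.9 to 51.9) and 50.7% (49.5 to 51.9) in pLKO. Thus shFABP4 2 was higher than the pLKO pair, while the interval of shFABP4 1 covered the pLKO values (38.2% with background subtracted). CDK2 made up 26.9% (20.4 to 34.3) and 36.5% (32.9 to 40.2) of CDK2 and CCNE1 fragments in shFABP4, against 38.05% (35.3 to 40.8) and 38.04% (35.9 to 40.2) in pLKO, and the interval of shFABP4 2 covered the pLKO values. With background subtracted the share in shFABP4 1 was 3.66%. The CDK6 share of CDK6 and CDK4 fragments was 41.5% (33.0 to 50.5) and 59.0% (54.1 to 63.8) in shFABP4, against 67.6% (55.7 to 78.0) and 67.4% (58.6 to 75.4) in pLKO. It was lowest in shFABP4 1, where it stood at 14.7% with background subtracted, and the interval of shFABP4 2 overlapped both pLKO intervals. The 14.7% rests on a background for the full exon length of CDK4, with its shared bases.

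**Figure D4:**
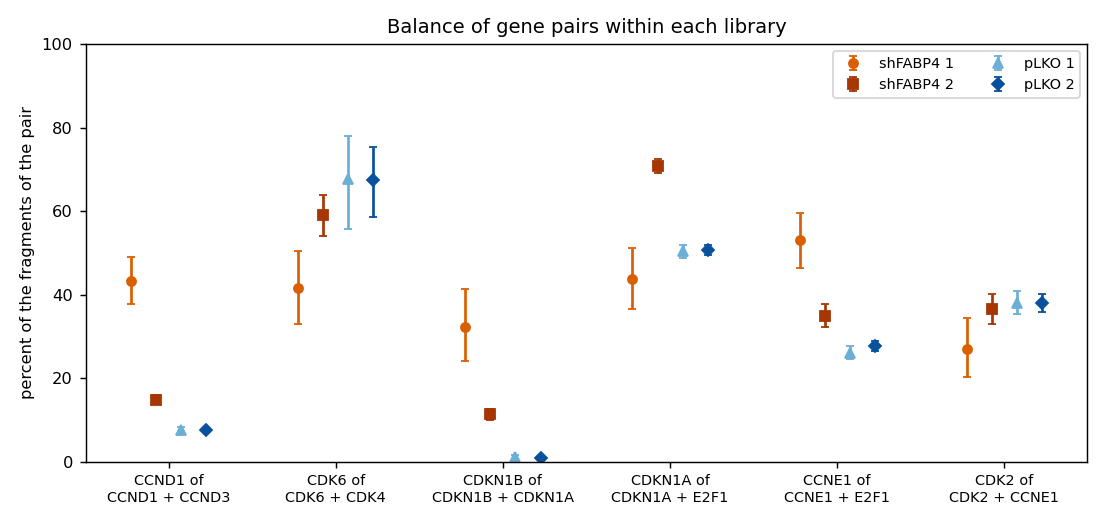
Share of the first gene in the fragments of each of 6 gene pairs, in percent, by library, with exact 95% binomial intervals. Before background is subtracted, CCND1, CDKN1B and CCNE1 take larger shares in both shFABP4 libraries than in both pLKO libraries. With background subtracted the CDKN1B share in shFABP4 1 is 0. The CDK2 share of 36.5% in shFABP4 2 lies beside the pLKO shares of 38.05% and 38.04%.

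Related genes were taken from lists. Among 18 partners of the RB pathway, which include RB and its relatives, the other E2F factors with their dimerisation partners, cyclin E2 and the remaining CDK inhibitors, 14 were tested with all 4 libraries and 0 passed. Both shFABP4 libraries lay below both pLKO libraries for 4 and above for 2 with TMM, where 26.1% and 28.5% of all tested genes did, but below for 0 and above for 6 with abundant-gene scaling (4.80% and 59.0%). The median log2 fold change with TMM was -0.14, against 0.34 over all tested genes. Without shFABP4 1, 3 of 15 were called higher and 8 lower (edgeR), where 34.2% and 32.7% of all tested genes were, and the median was -0.46, against 0.04 over all tested genes. With the GC and length correction the calls were 4 higher and 9 lower (32.6% and 34.5% of all). CDKN1C, the third inhibitor of the CDKN1 family (p57), had 114 and 795 fragments in shFABP4, against 50 and 115 in pLKO, with 46.8 expected from background in shFABP4 1. In edgeR it stood at 1.97 on the log2 scale (SE 0.53, adjusted p = 0.391). TFDP1, the dimerisation partner of E2F factors, had 134 and 977 fragments in shFABP4, against 707 and 1003 in pLKO (-1.19, SE 0.51, adjusted p = 0.392, edgeR).

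Of 28 E2F-regulated genes of S phase, 27 were tested and 0 passed. Both shFABP4 libraries lay below both pLKO libraries for 12 and above for 3 with TMM (26.1% and 28.5% of all tested genes), but below for 4 and above for 12 with abundant-gene scaling (4.80% and 59.0%). The median log2 fold change with TMM was -0.63, against 0.34 over all tested genes. Without shFABP4 1, 10 were called higher and 14 lower (edgeR), against 34.2% and 32.7% of all tested genes, with a median of -0.48. With the GC and length correction 7 were called higher and 15 lower (32.6% and 34.5% of all), so the list held calls in both directions in both fits. TK1, thymidine kinase, had 194 and 1962 fragments in shFABP4, against 6474 and 10077 in pLKO (log2 fold change -3.62, SE 0.96, adjusted p = 0.391, edgeR). TYMS, thymidylate synthase, had 8 and 59 fragments in shFABP4, against 3 and 3 in pLKO (2.85, SE 0.75, adjusted p = 0.391, edgeR), with 18.7 expected from background in shFABP4 1.

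Of 19 genes for the turnover and activation of G1 cyclins and inhibitors, such as the SCF ligase that degrades p27 and cyclin E and the CDK-activating kinase, 19 were tested and 0 passed. Both shFABP4 libraries lay below both pLKO libraries for 8 and above for 2 with TMM (26.1% and 28.5% of all tested genes), but below for 1 and above for 12 with abundant-gene scaling (4.80% and 59.0%). The median log2 fold change with TMM was -0.29. Without shFABP4 1, 6 were called higher and 6 lower (edgeR), against 34.2% and 32.7% of all tested genes, with a median of -0.03, and with the GC and length correction 3 were called higher and 9 lower (32.6% and 34.5% of all). CDC37, the HSP90 cochaperone that loads CDK4 and CDK6, had 148 and 2526 fragments in shFABP4, against 3369 and 5030 in pLKO (log2 fold change -2.48, SE 0.97, adjusted p = 0.391, edgeR). MNAT1, a subunit of the CDK-activating kinase, had 26 and 312 fragments in shFABP4, against 243 and 364 in pLKO (-1.57, SE 0.63, adjusted p = 0.392, edgeR).

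**Figure D5:**
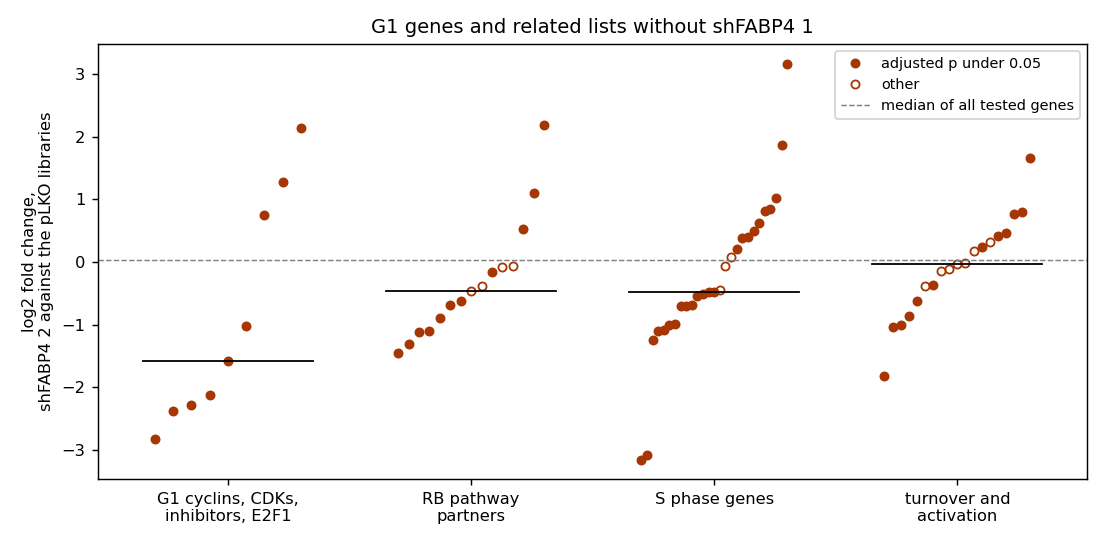
Log2 fold change of shFABP4 2 against the pLKO libraries, without shFABP4 1, for the 9 tested G1 genes and 3 related lists. Each point is a gene, filled where the adjusted p is under 0.05, black lines mark list medians and the dashed line the median of 0.04 over all tested genes; the G1 genes have a median of -1.58 and range from -2.83 for E2F1 to 2.14 for CDKN1B.

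CDKN2A and CDKN2B, which encode the INK4 inhibitors p16 and p15 that block CDK4 and CDK6, had almost no fragments. CDKN2B was at 0 in all 4 libraries, and CDKN2A had 0 and 0 in shFABP4 and 0 and 1 in pLKO. In shFABP4 1 the background rate predicted 73.3 fragments in CDKN2A and 20.2 in CDKN2B, above the upper 95% Poisson bound of 3.69 for a count of 0. CDKN2A shares 593 of its 3885 exon bases with CDKN2B-AS1. Among 14585 coding genes with at least 20 fragments expected from background, 105 had none in that library. The neighbouring MTAP, which like the other genes of this region is named after its values were seen, had 7 fragments against 55.3 expected. FOCAD, farther away, had 100 against 77.5, but its count can include RNA, with 2464 fragments in shFABP4 2, against 481 and 719 in pLKO. Of other genes looked at in this region with at least 20 expected, KLHL9 had 8 against 21.9 and DMRTA1 13 against 28.2. The low counts were thus not confined to the nearest genes. HACD4 had 30 against 34.9, within its upper 95% bound of 42.8, and MLLT3 76 against 30.8, so neither was low. Counts of KLHL9, DMRTA1 and MLLT3 can also include RNA, with 208, 46 and 250 fragments in shFABP4 2. The related CDKN2C (p18) and CDKN2D (p19) had fragments in all 4 libraries, 26 and 623 in shFABP4, against 176 and 230 in pLKO, for CDKN2C, and 24 and 86, against 92 and 107, for CDKN2D.

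The coding genes with the most similar profile were sought over the 4 libraries among 11593 coding genes with a mean of at least 20 fragments, by the Euclidean distance between centred log2 values. For E2F1 they were SLC25A10 (distance 0.168), PYGB (0.170) and CD63 (0.220). For CDKN1A they were KLHDC3 (0.0468), YWHAH (0.0575) and DTYMK (0.0603). These distances rest on 4 values a gene, including that of shFABP4 1 with its background. There 49.5 of 67 fragments of SLC25A10, 72.2 of 307 of PYGB and 25.8 of 180 of CD63 were expected from background. For KLHDC3, YWHAH and DTYMK it was 32.7 of 117, 25.5 of 39 and 38.9 of 99.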

How the data were processed

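RNA sequencing covered 4 Daoy libraries, grouped by their labels. Per the file headers, the authors deposited raw counts of fragments, made with featureCounts 2.0.0 over exons by gene name with GENCODE 38, without chimeric fragments and with no strand option. Per the submitters' processing notes, the tools were FastQC, HISAT and StringTie, on GRCh38. The exon length per gene name was also deposited by the authors. Without strand, a gene cannot be told from an overlapping antisense partner. ANK2, whose row was broken over 7 lines, was left out. GENCODE 29 gave gene types and GC (63.6% of names matched).

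The test of counts was that of edgeR 4.0.16 under R 4.3.3 (TMM; filterByExpr at min.count 10 and min.total.count 15; robust quasi-likelihood F test, two-sided; Benjamini-Hochberg over all genes tested; threshold 0.05). The SE is the absolute log2 fold change divided by the square root of F. DESeq2 1.42.0 and limma-voom 3.58.1, other scalings, each library left out, the replicate number as a block, no filter, and background subtraction were alternatives. The GC and length correction (splines with 4 degrees of freedom) and the test within abundant genes were added after seeing the data. Background in shFABP4 1 was a rate per kb in bins of GC content. Abundant genes were coding genes whose expected RNA, averaged from the other 3 libraries (shFABP4 2 is 1 of them), was at least 5 times that background. The test was tried on simulated data. Both pLKO libraries were kept, since their chi-square over 13291 genes was 2.16 per degree of freedom, above sampling noise. Between the shFABP4 libraries it was 359 (24712 genes), and between shFABP4 2 and pLKO 1 it was 197 (14288 genes). These values rest on different genes and depths.

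The members, lists and alternatives were chosen with earlier results of these data known. All members were named, and of each list the 2 genes with the smallest p and any gene at 0 in all libraries. For E2F1 and CDKN1A the 3 nearest coding genes by profile (prior count 2) were named. The RB partners CDKN2A, CDKN2C and CDKN2D, and MTAP, FOCAD, KLHL9, DMRTA1, HACD4, MLLT3, TSPAN31 and LTO1, were named after their values were seen. The result of 1 further list is not reported here.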

Additional observations from a re-analysis of the deposited data

How the results depend on the processing

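Over all genes, the count of 0 calls became 69 with no low-count filter, 695 with DESeq2, 28 with the replicate number as a block, 373 within abundant genes only, and 9131 with the GC content and length correction without shFABP4 1. It ranged from 0 to 23895 when single libraries were left out. RLE, upper-quartile, library-total and abundant-gene scaling, limma-voom, background subtraction and the GC content and length correction with all libraries gave 0. Of the G1 genes, 0 passed in the analysis reported and under the block, 3 in DESeq2, 1 within abundant genes only (CCND3, which entered that set through its pLKO level), 8 with the correction without shFABP4 1, and 0 to 9 when single libraries were left out. The fit without shFABP4 2 rests on shFABP4 1 with its background, and there 23895 of 27830 genes (85.9%) and 8 of the 10 G1 genes were called. The cause of the changes between tools was not tested.

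Log2 fold changes that turned direction were those of CCND1 (0.020 with library totals, 1.11 with abundant genes, 0.76 with background subtracted), CCNE1 (0.14 and 0.055 under the last 2), TFDP1 (0.67 and 0.59 under the same) and CDK6 (-0.42 without shFABP4 2, against 0.75 without shFABP4 1). The cause was not tested. The labels do not tie library numbers across groups, and deviations of the libraries numbered 1 correlated at 0.0106. Depth limits CDK4, CDK6 and CDKN1B, with at most 87 fragments in a pLKO library, and all values in shFABP4 1.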
